A study of Mus musculus with 4 samples.

Results

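The 8 genes described here encode secreted growth factors, cytokines and a carrier protein that cardiac macrophages can make: insulin-like growth factor 1 (Igf1) and its binding protein Igfbp4, the platelet-derived growth factor chains Pdgfa, Pdgfb and Pdgfc, the epidermal growth factor (EGF) family ligands Hbegf and Areg, and the interleukin-6 family cytokine Osm. They were taken by symbol from the gene annotation shared by the 4 deposited count matrices, and all 8 were present in each. The study profiled single cells from the hearts of CSF1R-EGFP+ mice, aged 12 to 16 weeks, in which the Csf1r promoter drives green fluorescent protein in macrophages, monocytes and some other leukocytes. Ly6G-negative EGFP+ cells were sorted after enzymatic digestion and sequenced with the 10x Genomics 3' chemistry. The baseline library held cells pooled from 3 hearts without surgery, and each of the 3 infarct libraries held cells of 1 heart, 7 days after left coronary artery ligation. All mice carried the reporter, and there was no sham-operated group. The baseline library has no replicate, so no infarct against baseline difference could be tested. The infarct and the surgery itself cannot be told apart in it.

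IGF1 acts through the receptor IGF1R on cardiomyocytes, fibroblasts and leukocytes, and IGFBP4 binds IGF1 and keeps it from the receptor until a protease cleaves the carrier. PDGF chains dimerise and act on the receptors PDGFRα and PDGFRβ of fibroblasts and mural cells, and PDGF-C must be cut by plasmin-like proteases before it is active. HB-EGF and amphiregulin are made as membrane precursors and are released by metalloproteases such as ADAM17 to act on EGFR. Oncostatin M, the product of Osm, signals through gp130 paired with OSMR or LIFR. After infarction, resident macrophages are lost from the injured wall and monocyte-derived macrophages accumulate in it, and both populations are known sources of such factors.

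In GRCm38, Igf1 (ENSMUSG00000020053) lies at chr10:87858265-87937042 on the plus strand and Igfbp4 (ENSMUSG00000017493) at chr11:99041244-99054392 on the plus strand. Pdgfa (ENSMUSG00000025856) lies at chr5:138976014-138997370 and Pdgfb (ENSMUSG00000000489) at chr15:79995874-80014977, both on the minus strand. Pdgfc (ENSMUSG00000028019) lies at chr3:81036416-81214040, Areg (ENSMUSG00000029378) at chr5:91139599-91148432 and Osm (ENSMUSG00000058755) at chr11:4236420-4241026, all on the plus strand.

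Promoter sequence was at hand for 5 of the 8 genes in 6 RefSeq entries on GRCm38.p6, 2 of them for Pdgfa. The start of the Igf1 entry and both Pdgfa starts lay inside the gene intervals given above, downstream of the first base of the gene. For Igfbp4, Pdgfc and Areg the start was the first base of the interval. The 135 bases before the annotated start are printed for Igf1, Igfbp4 and Pdgfc, which followed each other most closely across cell populations, and for Areg, whose UMIs lay in few cells. They are written 5′ to 3′ on the plus strand, with motif matches in capitals.
Igf1, chr10:87860976-87861110: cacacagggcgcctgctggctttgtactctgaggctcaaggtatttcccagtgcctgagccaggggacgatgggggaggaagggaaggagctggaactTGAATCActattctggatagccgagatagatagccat
Igfbp4, chr11:99041109-99041243: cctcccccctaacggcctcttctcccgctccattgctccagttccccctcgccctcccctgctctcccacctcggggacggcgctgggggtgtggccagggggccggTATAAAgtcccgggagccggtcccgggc
Pdgfc, chr3:81036281-81036415: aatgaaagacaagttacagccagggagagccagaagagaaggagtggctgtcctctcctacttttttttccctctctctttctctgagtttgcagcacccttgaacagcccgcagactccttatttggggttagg
Areg, chr5:91139464-91139598: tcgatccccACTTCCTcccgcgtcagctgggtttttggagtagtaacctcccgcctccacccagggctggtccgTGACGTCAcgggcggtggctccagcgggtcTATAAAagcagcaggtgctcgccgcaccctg

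The motifs were searched on both strands from 250 bases before to 50 bases after the start. The TATA box (TATAAA) was matched in Areg 31 bases before the start and in Igfbp4 28 bases before it, and 13.6% of all 32851 promoters held it. Areg also held a cAMP response element (TGACGTCA), present in 1.79% of promoters, and on the minus strand the core of ETS and PU.1 sites (AGGAAGT), present in 9.35%. Igf1 held 1 match to the AP-1 site (TGANTCA) 37 bases before the start, as did 7.81% of promoters in the same window. The Pdgfc entry and the Pdgfa entries held none of the 4 motifs. In these windows Igf1, Pdgfc and Igfbp4 had none of the searched motifs in common.

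The libraries held 10144 to 10804 cell barcodes and 71093963 to 97944428 UMIs, and 10117 to 10782 cells per library were kept, with a median depth of 6398.5 UMIs in the baseline library and 8469.5 to 8556.5 in the infarct libraries. Pairs of libraries shared 26 to 34 barcodes. Cells were sorted into populations by marker UMIs, and the names are those of the markers: resident-like (Lyve1, Cd163, Folr2, Timd4, Retnla, Cbr2), reparative-like (Gpnmb, Spp1, Gdf15, Trem2, Fabp5), MHC-II-high, Saa3 Arg1, interferon-response-like and cycling macrophages, remaining macrophages with C1q and none of these signatures, and transitional cells with both C1q and classical monocyte markers. The macrophage gates held 62.5% of baseline cells and 72.4 to 80.7% of infarct cells, and 83.3% and 85.7 to 89.5% with the transitional and monocyte gates added. Each gate is a range cut from a score: 14.8% of resident-like and 31.2% of reparative-like cells lay within 1.5 times of their threshold. Resident-like cells were 32.3% of the baseline library and 1.14% ± 0.286 (SD, n = 3) of the infarct libraries, whereas reparative-like cells were 1.52% and 33.4% ± 5.95 (SD, n = 3). Markers of other cell types also differed between libraries: the 5 fibroblast markers summed to 19.4 CPM (UMIs scaled to a common total) at baseline and to 223, 53.0 and 62.9 CPM in infarct replicates 1 to 3, and the 5 endothelial markers to 39.7 CPM and 8.0 to 8.96 CPM, with no marker of either list at 0. The 4 erythroid markers summed to 89.2 CPM at baseline and 0.826, 0.416 and 167 CPM after infarction, and the 4 B cell markers to 71.1 and 41.2 to 62.7 CPM. Their part in the results was not tested.

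In the whole sort, Pdgfa, Pdgfb and Osm were higher in every infarct library than at baseline, and Igfbp4, Pdgfc, Hbegf and Areg were lower. Values are CPM, summed UMIs of a gene scaled to the same total per library without mitochondrial genes. Intervals on the baseline value are exact Poisson intervals at 95% that cover counting error only. Pdgfa, which encodes the A chain of PDGF, measured 19.4 CPM at baseline (18.4 to 20.5) and 48.4, 54.1 and 50.5 CPM in infarct replicates 1 to 3, a mean of 51.0 ± 2.90 CPM (SD, n = 3) and 2.62 times the baseline. The infarct hearts lay close together and far above the baseline library. Osm measured 47.5 CPM (45.9 to 49.2) and then 72.1, 70.9 and 61.1 CPM, 1.43 times the baseline on average. Pdgfb, which encodes the B chain, measured 63.2 CPM (61.3 to 65.1) and 76.0, 85.5 and 70.7 CPM, 1.23 times the baseline. The lowest infarct heart thus exceeded the baseline interval for all of Pdgfa, Pdgfb and Osm, by the narrowest margin for Pdgfb.

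Igfbp4 measured 135 CPM at baseline (132 to 138) and 59.0, 61.1 and 75.6 CPM after infarction, a log2 difference of -1.05. Pdgfc measured 17.3 CPM (16.3 to 18.3) and 11.1, 13.9 and 10.2 CPM, a log2 difference of -0.56. Hbegf measured 5.27 CPM (4.73 to 5.84) and 1.99, 1.85 and 4.16 CPM. All infarct hearts were below baseline for these genes, but for Hbegf infarct replicate 3 stood above the other hearts. Areg measured 5.46 CPM (4.92 to 6.04) and 1.38, 3.95 and 4.16 CPM, with replicate 1 the lowest. Igf1 did not separate the groups: it measured 231 CPM at baseline (227 to 234) and 204, 259 and 268 CPM after infarction, so that 1 heart lay below the baseline interval and 2 above it.

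These counts need the background of the transcriptome. Of the 7708 genes that averaged 10 CPM or more, 30.7% had all 3 infarct libraries above the baseline and 55.7% had all 3 below, with a median log2 difference of -0.17, and the members gave 3 above, 4 below and 1 overlapping. Of the 8 members, 6 averaged 10 CPM or more, namely all but Hbegf and Areg. With scaling factors by the trimmed mean of M-values (TMM) the median of all genes moved up by 0.29 on the log2 scale and the split became 50.9% above and 35.0% below. On that scale Igf1 was above baseline in every heart, at 199 against 211, 279 and 279 CPM, and Pdgfc overlapped, at 14.9 against 11.5, 15.0 and 10.6 CPM. The other 6 members kept their side.

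**Figure D1:**
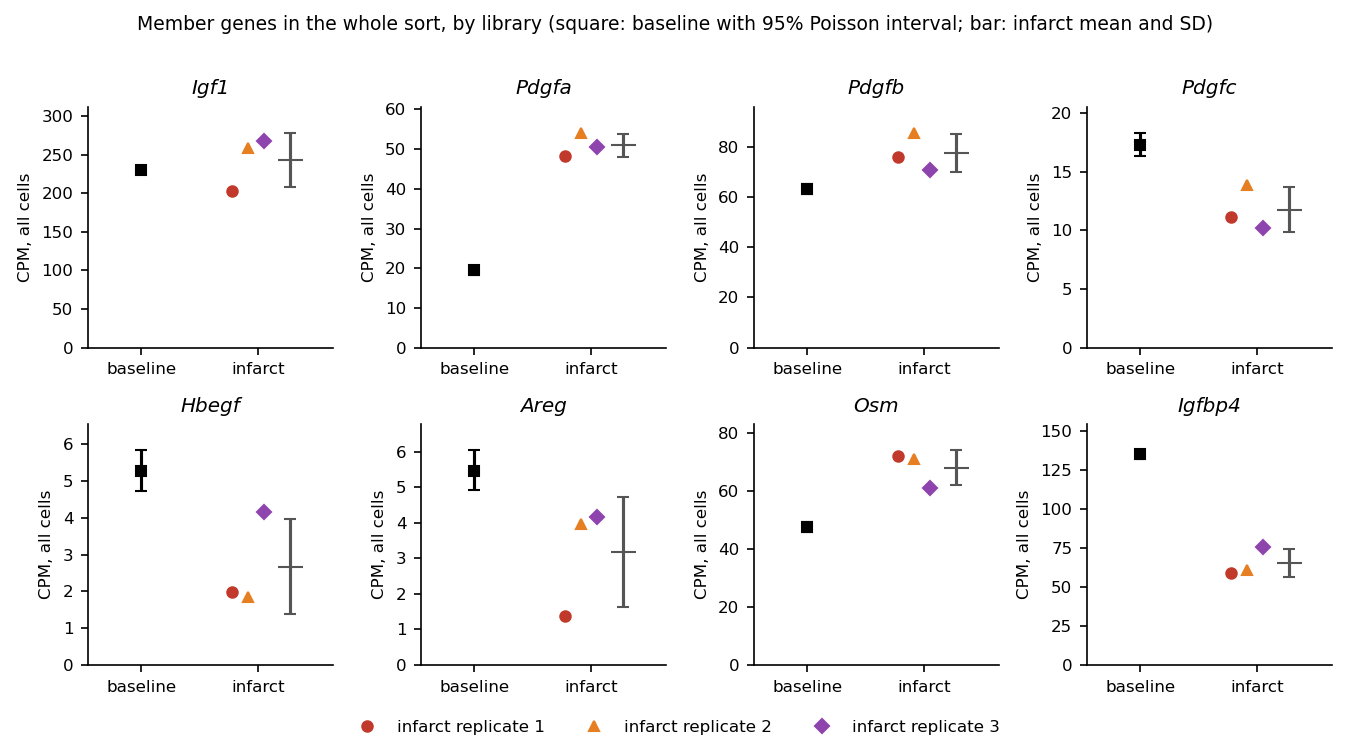
Level of each of the 8 genes in the whole sort (y axis, CPM of summed counts) in the baseline library (square, with its 95% Poisson interval) and in infarct replicates 1 to 3 (coloured points, with mean and SD as a bar). Pdgfa, Pdgfb and Osm lie above the baseline square in all 3 infarct libraries, Igfbp4, Pdgfc, Hbegf and Areg lie below it, and Igf1 lies on both sides.

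The cells that held these UMIs differed between baseline and infarct. At baseline, resident-like macrophages held 81.8% of Pdgfc UMIs, 74.5% of Igfbp4 UMIs, 65.9% of Igf1 UMIs and 60.4% of Hbegf UMIs. In the infarct libraries, they held 3.07%, 2.97%, 1.61% and 1.8% of them on average. Reparative-like macrophages held 60.5% ± 3.41 of Igf1 UMIs, 59.7% ± 5.94 of Pdgfc UMIs, 49.7% ± 1.06 of Pdgfa UMIs and 43.3% ± 6.17 of Igfbp4 UMIs (SD, n = 3), against 5.16%, 2.31%, 7.22% and 0.941% at baseline. Pdgfb at baseline came mostly from MHC-II-high macrophages (42.2%) and resident-like macrophages (31.8%), and after infarction from reparative-like cells (40.9% ± 4.09) and MHC-II-high cells (24.5% ± 1.47). Osm UMIs lay in monocytes as well as macrophages. Resident-like cells held 26.8% and classical monocyte-like cells 22.7% of them at baseline. After infarction reparative-like cells held 31.9% ± 3.08 and classical monocyte-like cells 13.7% ± 4.48. These shares depend on the gate sizes, which differed strongly between the libraries, and on the level of the gene within each gate. Resident-like cells were 32.3% of baseline cells, and reparative-like cells 33.4% of infarct cells on average.

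**Figure D2:**
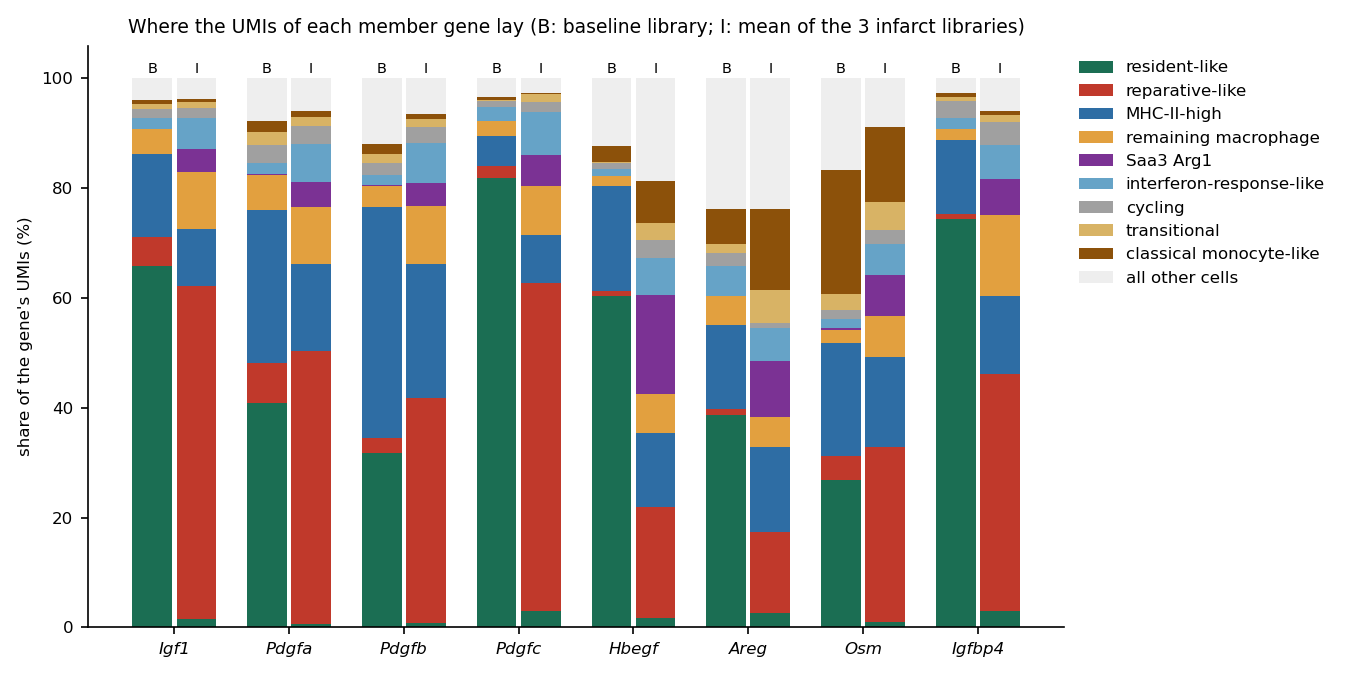
Share of each gene's UMIs (y axis, percent) that lay in each marker gate in the baseline library (B) and on average in the 3 infarct libraries (I). The resident-like share of Igf1, Pdgfc and Igfbp4 was 65.9%, 81.8% and 74.5% at baseline, and reparative-like cells held 60.5%, 59.7% and 43.3% of them after infarction.

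To compare populations with replicates, counts of each gate were summed per infarct heart and set against all other cells of the same heart, and edgeR's quasi-likelihood test was applied to all genes with Benjamini-Hochberg adjustment and a threshold of 0.01. Over 13 gates the 8 genes gave 104 pairs, of which 20 were higher in the gate, 40 were lower and 44 were not called. Without the library as a block, 8 pairs were higher and 22 lower. The monocyte, dendritic and lymphocyte gates carried most of the lower calls. Members were called in 6 of 8 cases in the classical monocyte-like gate (1 higher, 5 lower), where 29.4% of all genes were called, in 6 of 8 in the non-classical monocyte-like gate (all lower), where 15.6% were called, and in 6 of 8 in the dendritic-like gate (1 higher, 5 lower), where 32.3% were called. The transitional gate also had 6 members called (1 higher, 5 lower) against 10.6% of all genes. The granulocyte-like gate had 5 called (1 higher, 4 lower) against 12.1%, and the B-cell-like gate 5, all lower, against 9.68%.

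Among macrophages, the reparative-like gate had 7 of 8 members called, 5 higher and 2 lower, where 25.3% of all genes were called. The resident-like gate had 4 called (3 higher, 1 lower) against 9.59%, the MHC-II-high gate 4 (1 higher, 3 lower) against 22.3%, and the remaining macrophage gate 4, all higher, against 16.1%. The Saa3 Arg1 gate had 2 called (1 higher, 1 lower) against 19.7%, the interferon-response-like gate 2, both higher, against 13.4%, and the cycling gate 3, all lower, against 23.0%. The median log2 difference of the members was 0.60 in the resident-like gate and 0.40 in the reparative-like gate, beside -0.04 and -0.00 for all genes, and -2.77 in the classical monocyte-like gate beside -0.07. None of the 8 genes was a gate marker. Some lower calls not described further were lost when 1 heart was left out. Pdgfb in non-classical monocyte-like cells, at -1.01 on the log2 scale, gave -0.61 without infarct replicate 2 and -0.91 without replicate 3 (edgeR adjusted p = 0.0872 and 0.0379). Pdgfb in B-cell-like cells went from -0.73 to -0.57 without replicate 3 (0.0544). Without replicate 2, Pdgfa in Saa3 Arg1 cells went from -0.64 to -0.46 (0.0193) and Pdgfc in cycling cells from -0.91 to -0.85 (0.0324).

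Among the gates tested, Igf1 had its highest infarct means in reparative-like and resident-like macrophages and was low in monocytes and dendritic cells. In reparative-like macrophages it measured 377, 403 and 412 CPM in the infarct hearts, and 397 CPM at baseline. The groups overlapped, and the level in this gate was about the same in every library. Against the other cells of the same hearts (153 ± 26.5 CPM, SD, n = 3) the log2 difference was 1.49 (SE 0.0715, edgeR adjusted p = 3.87e-05), with all 3 hearts higher. In resident-like macrophages Igf1 measured 297, 539 and 349 CPM after infarction and 424 CPM at baseline. The gate held 91 to 147 cells per infarct heart, and infarct replicate 2 was the highest. Igf1 was higher there than in other cells by 0.54 (SE 0.126, edgeR adjusted p = 0.000838), a call lost without infarct replicate 1 (adjusted p = 0.0418). The call was also lost with gate thresholds doubled (0.31, 0.115), without the library block (0.155) and with cells thinned to 2000 UMIs (0.01). By DESeq2 the adjusted p was 0.0132. Remaining macrophages, which at 430 CPM held the highest level of these gates at baseline, measured 285, 306 and 311 CPM after infarction. They were higher than other cells by 0.29 (adjusted p = 0.00305), but with every gate threshold halved the difference was -0.10.

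The order of Igf1 levels in the infarct hearts ran from reparative-like through resident-like to remaining macrophages (301 ± 13.7 CPM), neighbours whose ranges overlapped, and then fell to interferon-response-like (218 ± 13.7 CPM) and MHC-II-high macrophages (136 ± 20.2 CPM), each apart from the gate above it. Classical monocyte-like cells measured 11.4, 14.7 and 32.1 CPM, lower by 3.81 on the log2 scale (SE 0.198, edgeR adjusted p = 3.84e-06). Dendritic-like cells measured 7.31, 1.97 and 3.19 CPM, with a log2 difference of -5.68 (adjusted p = 6.28e-25). Transitional cells, at 58.7, 118 and 132 CPM, lay above classical monocyte-like cells, and their range overlapped with those of the Saa3 Arg1 and cycling gates. Infarct replicate 1 was the lowest heart in transitional and in classical monocyte-like cells.

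After thinning every cell to 2000 UMIs, Igf1 was seen in 44.6 to 48.7% of reparative-like cells of the infarct hearts and in 44.8% at baseline (95% exact binomial interval 36.8 to 53.0). Without thinning the shares were 77.3 to 79.9% and 73.7%. In B-cell-like cells, which should lack the transcript, the thinned share was 8.11 to 11.2% in the infarct hearts and 4.76% at baseline, and in dendritic-like cells it was 0 to 1.74% and 1.8%. The 0 was 0 of 165 thinned cells, which by the limit of 3 counts allows a share of cells with a UMI of up to 1.82%, and without thinning the share was 1.76%. Median depth before thinning was 9122 to 9629 UMIs in reparative-like and 9441.5 to 10317 UMIs in B-cell-like cells of the infarct hearts. With the highest doublet scores removed, Igf1 in baseline B-cell-like cells went from 68.8 to 13.8 CPM, and in infarct B-cell-like cells it stayed at 67.0, 74.0 and 111 CPM.

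Igfbp4, the carrier that holds IGF1, was highest in resident-like macrophages among the gates tested, in every library. In resident-like macrophages it measured 281 CPM at baseline and 149, 245 and 188 CPM in the infarct hearts, all below baseline. Within the infarct hearts it was higher there than in other cells by 1.45 on the log2 scale (SE 0.133, edgeR adjusted p = 2.39e-14), and its range was apart from that of every other gate tested. Remaining macrophages were higher by 0.87 (SE 0.0865, adjusted p = 5.44e-05). In reparative-like macrophages Igfbp4 measured 42.4 CPM at baseline and 71.2, 73.5 and 82.7 CPM after infarction, so this gate was the only one of 12 in which all infarct hearts exceeded the baseline. The gate was higher than other cells by 0.47 (SE 0.0546, adjusted p = 0.000936). With clusters in place of gates the difference was -1.27 (adjusted p = 2.46e-05), but the cluster so named was a different set of cells. It held 3731 cells led by Ctsk, Spp1 and Gpnmb, whereas the gate held 10636 cells led by Gpnmb, Gdf15 and Syngr1. In 9 of the 12 gates all infarct hearts lay below baseline, among them MHC-II-high macrophages (82.8 against 49.2, 43.8 and 55.8 CPM), interferon-response-like macrophages (166 against 56.5, 63.1 and 68.5 CPM) and cycling macrophages (190 against 66.5, 73.6 and 102 CPM). Of all genes of at least 10 CPM, 25.7 to 55.9% were below in every infarct heart, depending on the gate. The share was 55.9% in MHC-II-high, 55.1% in interferon-response-like and 49.8% in cycling macrophages. Fibroblast-like cells held the highest Igfbp4 level, 837 CPM at baseline from 29 UMIs and 634, 517 and 562 CPM after infarction. They held 0.317% and on average 2.81% of the gene's UMIs.

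Of the 15 listed genes of the IGF axis, 8 averaged 10 CPM or more over the libraries in the whole sort, of which 3 were above baseline in every infarct heart, 3 were below and 2 overlapped. The receptor gene Igf1r measured 39.3 CPM at baseline and 18.1, 16.3 and 19.9 CPM after infarction, and Insr, the insulin receptor gene, 47.6 and 21.3, 17.3 and 22.3 CPM. Both signalling receptors were thus lower in all infarct hearts. Igf2r, which clears IGF2 and carries lysosomal enzymes, went the other way, from 9.05 to 29.0, 29.3 and 29.4 CPM. It was higher in reparative-like macrophages than in other cells by 1.24 (SE 0.117, edgeR adjusted p = 0.000412), although within that gate it was lower in every infarct heart, at 49.6, 38.7 and 46.5 CPM, than at baseline, at 73.5 CPM. Igfbp6, a binding protein that prefers IGF2, measured 0.873 CPM at baseline and 24.0, 11.8 and 7.14 CPM after infarction, with classical monocyte-like cells higher than the rest by 2.39 (adjusted p = 8.73e-07). In the gate tests this list gave 15 higher and 45 lower calls over 136 pairs, with a median log2 difference of -0.51. Over all genes tested, 4.34 to 14.9% were higher and 4.81 to 17.4% lower, depending on the gate.

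Among the gates tested, Pdgfa had its highest infarct means in reparative-like and remaining macrophages, with overlapping ranges, and, with Osm, exceeded the baseline in more gates than the other members did. In reparative-like macrophages it measured 46.9 CPM at baseline and 75.4, 66.2 and 65.3 CPM in the infarct hearts. In MHC-II-high macrophages it measured 24.8 CPM and then 43.5, 43.3 and 42.7 CPM, values that barely differed between hearts. All infarct hearts were above baseline in 6 of the 6 macrophage gates compared and in 8 of all 12 gates. Over all genes of at least 10 CPM, 21.7 to 31.5% were above in each of these macrophage gates. Resident-like cells were the narrowest case, at 22.2 CPM against 35.9, 34.7 and 22.6 CPM. Within the infarct hearts the gene was higher in reparative-like macrophages by 0.85 (SE 0.098, edgeR adjusted p = 0.000917) and lower in resident-like macrophages by 0.84 (SE 0.183, adjusted p = 0.000331), the latter a call lost without infarct replicate 3 (adjusted p = 0.0792). Remaining macrophages were higher by 0.29 (adjusted p = 0.00257), which was lost without replicate 1 (0.011) or replicate 3 (0.0113). Classical monocyte-like cells were lower by 2.57 (adjusted p = 4.08e-05).

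Pdgfb had its highest mean in MHC-II-high macrophages among the gates tested. It measured 122 CPM there at baseline and 102, 110 and 94.6 CPM after infarction. All infarct hearts thus lay below baseline, opposite to the whole sort, with a log2 difference of -0.26. In this gate 55.9% of all genes of at least 10 CPM were below in every infarct heart, with a median of -0.18. Against other cells of the infarct hearts the gate was higher by 0.61 (SE 0.0331, edgeR adjusted p = 1.72e-06). In reparative-like macrophages the gene measured 55.8 CPM at baseline and 89.9, 93.1 and 74.7 CPM, all above baseline, where 31.5% of all genes were. That gate was higher than other cells by 0.34 (adjusted p = 0.00308), a call lost without infarct replicate 2 (0.36, adjusted p = 0.0136) or replicate 3 (0.38, 0.0137), and with thresholds doubled the difference was 0.08 (0.231). Remaining and interferon-response-like macrophages were higher by 0.29 and 0.39 (adjusted p = 0.00148 and 0.00284). The first was lost without infarct replicate 3 (0.0104) and the second without replicate 1 (0.0763), and by CPM the second was higher in 2 of 3 hearts. In order of level the first 4 macrophage gates, from MHC-II-high at 102 ± 7.46 to reparative-like at 85.9 ± 9.84 CPM, overlapped with their neighbours. Classical monocyte-like cells held 12.2, 8.10 and 9.68 CPM, lower by 2.97 (adjusted p = 2.1e-06). Endothelial-like cells, known to secrete PDGF-B, held 310 CPM at baseline and 198, 329 and 265 CPM after infarction, from 17 to 27 UMIs per infarct heart, and 3.11% of the baseline UMIs.

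Pdgfc followed resident-like and reparative-like macrophages. In resident-like cells it measured 39.5 CPM at baseline and 31.6, 26.9 and 36.4 CPM after infarction, all below baseline, though with clusters in place of gates the log2 difference to baseline was 0.26. The log2 difference to other cells of the infarct hearts was 1.39 (SE 0.224, edgeR adjusted p = 1.25e-06), and after thinning 1.13 (adjusted p = 0.0748). In reparative-like cells it measured 13.3 CPM at baseline, from 27 UMIs (95% interval 8.78 to 19.4), and 19.0, 21.8 and 16.1 CPM after infarction. These cells were higher than the rest by 1.44 (SE 0.0584, adjusted p = 2.16e-05). In the cluster named reparative-like, a different set of cells, the difference was -0.07 (adjusted p = 0.627). Interferon-response-like macrophages were higher by 0.49 (adjusted p = 0.00948), a call lost without infarct replicate 1 (0.159). The call was also lost after thinning (0.538), with thresholds doubled (0.0106) or halved (0.0192), with clusters (0.0707) and without the library block (0.122). By DESeq2 the adjusted p was 0.0421, and by edgeR against other macrophages and monocytes only it was 0.0525. MHC-II-high macrophages were lower by 1.15 (adjusted p = 5.07e-05). Classical monocyte-like cells held 5 UMIs over the 3 hearts, and dendritic-like cells 1.

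The PDGF list held 8 genes, of which 4 averaged 10 CPM or more, with Pdgfa, Pdgfb and Furin above baseline in every infarct heart and Pdgfc below. Furin, a protease that trims proproteins including the A and B chains, measured 75.0 CPM at baseline and 105, 105 and 103 CPM after infarction, and was higher in reparative-like macrophages by 0.35 (SE 0.0448, edgeR adjusted p = 0.00143). The receptors stayed low in this sort: Pdgfra measured 0.518 CPM at baseline and 0.170 to 1.07 CPM after infarction, and Pdgfrb 0.636 and 0.373 to 1.45 CPM. Infarct replicate 1, with the most fibroblast marker counts, held the highest value of both. The gate tests gave 11 higher and 28 lower calls over 93 pairs, with a median log2 difference of -0.84. The shares over all genes tested were again 4.34 to 14.9% higher and 4.81 to 17.4% lower, depending on the gate.

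**Figure D3:**
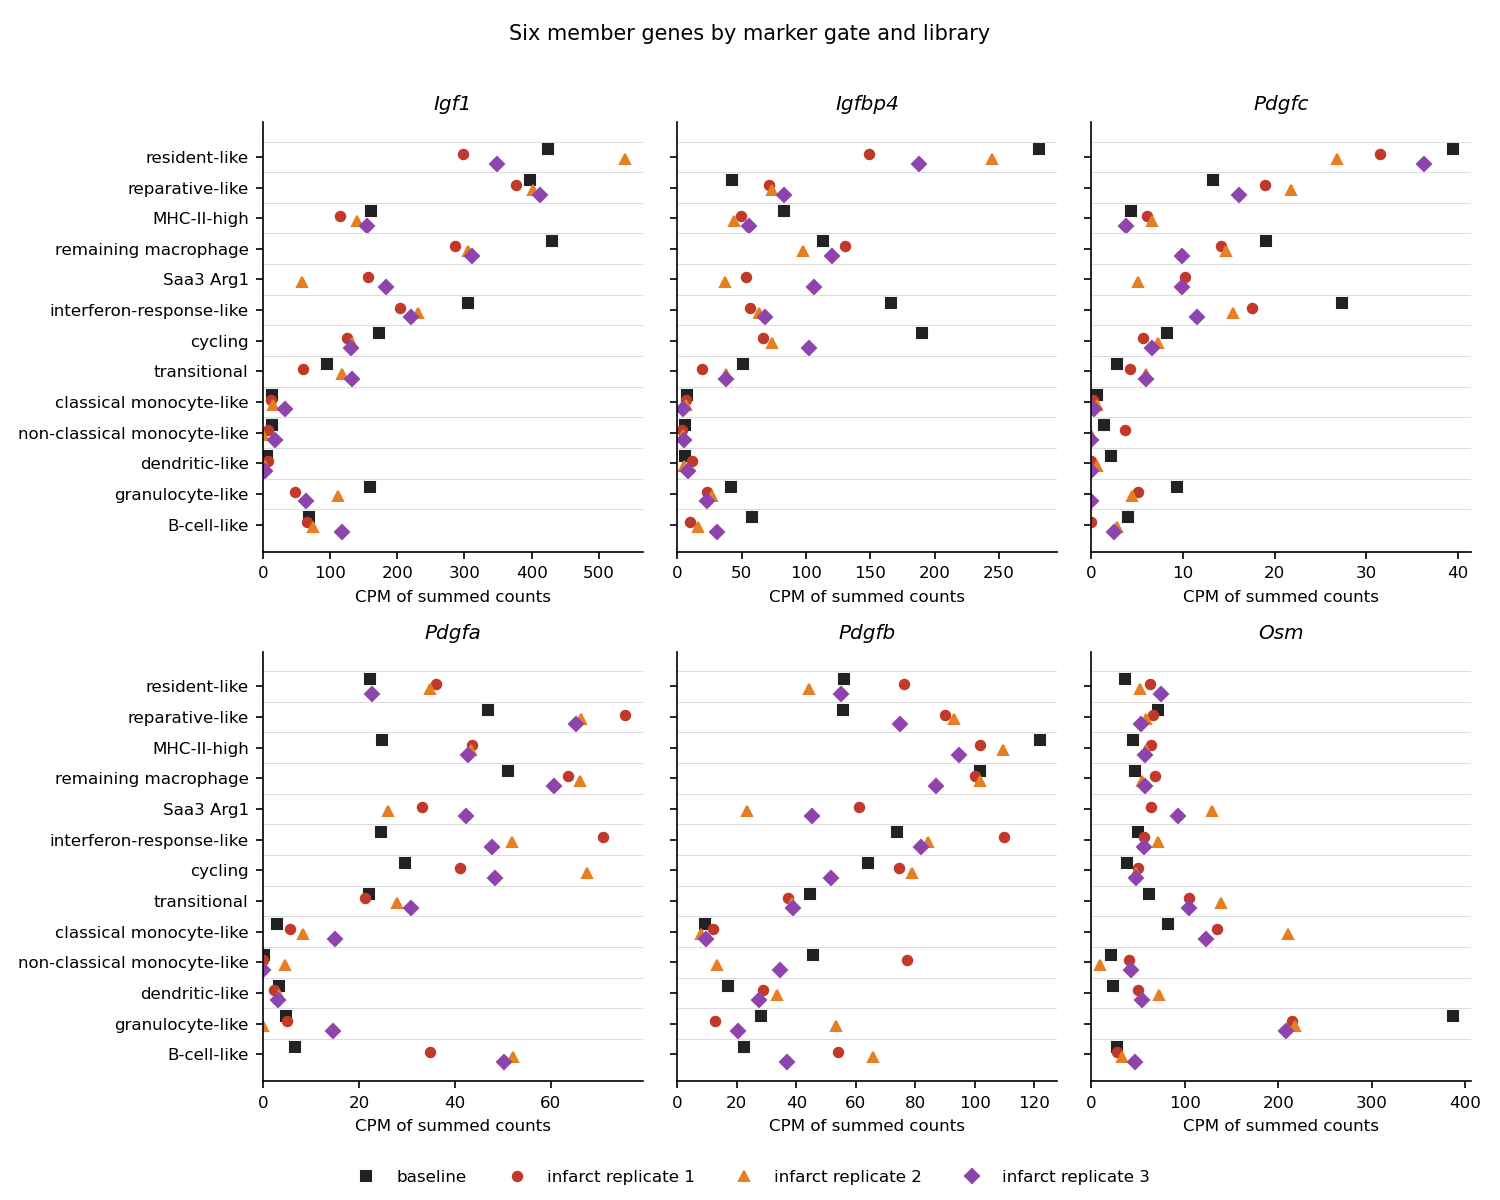
Level of Igf1, Igfbp4, Pdgfc, Pdgfa, Pdgfb and Osm (x axes, CPM of summed counts) in 13 marker gates (rows) in the baseline library (squares) and infarct replicates 1 to 3 (coloured points). Igf1 in reparative-like cells lies at 397 CPM at baseline and 377 to 412 CPM after infarction, Pdgfb has its highest infarct mean in MHC-II-high cells, and Osm its highest infarct means in granulocyte-like and classical monocyte-like cells.

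Hbegf and Areg, the EGFR ligands, were rare and uneven. Hbegf gave 356 UMIs at baseline and 176, 174 and 355 UMIs in the infarct hearts, and Areg gave 369 and 122, 371 and 355 UMIs. Areg was seen in 143 baseline cells and in 45, 80 and 78 infarct cells. The 10 cells with most Areg held 38.5% of its UMIs at baseline and 54.9%, 55.8% and 52.4% after infarction, with up to 41 UMIs in 1 cell. For Hbegf the 10 highest cells held 21.9% and 24.1 to 27.9%, whereas for each of the other 6 genes they held at most 6.08%. A few cells therefore set the level of Areg in a gate.

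**Figure D4:**
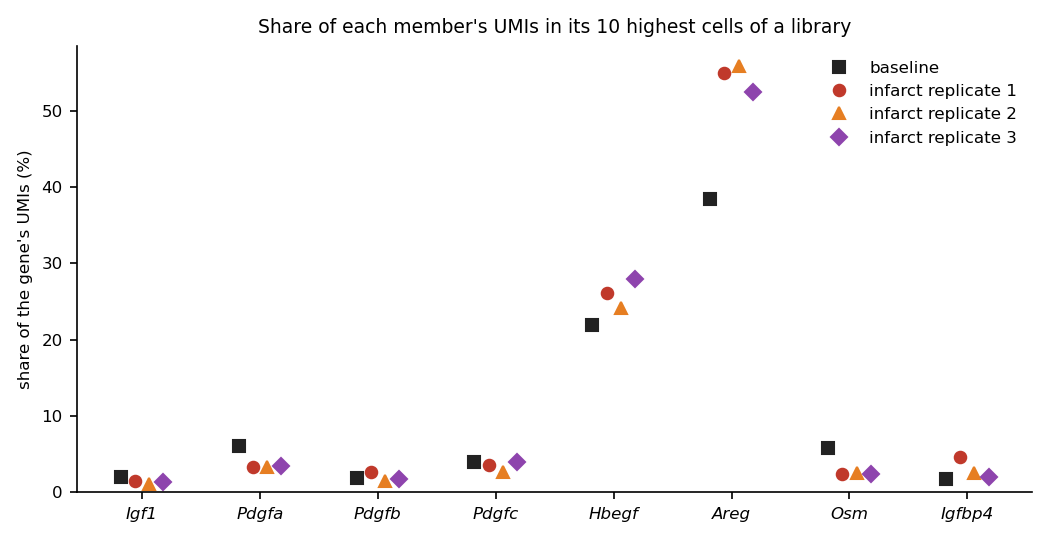
Share of each gene's UMIs (y axis, percent) held by its 10 highest cells in the baseline library (squares) and infarct replicates 1 to 3 (coloured points). Areg lies between 38.5% and 55.8%, Hbegf between 21.9% and 27.9%, and the other genes at or below 6.08%.

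In resident-like macrophages Hbegf measured 8.88 CPM at baseline and 3.51, 3.16 and 6.88 CPM after infarction, the latter from 4, 2 and 7 UMIs. In MHC-II-high macrophages it measured 4.60 CPM and 2.02, 1.38 and 1.74 CPM, all below baseline. The Saa3 Arg1 gate, with 7 cells at baseline, held 3.6, 6.98 and 17.6 CPM after infarction, from 31, 11 and 107 UMIs. It was higher than other cells by 1.81 (SE 0.317, edgeR adjusted p = 0.00158), a call lost without infarct replicate 3 (1.33, adjusted p = 0.0274). Reparative-like macrophages were lower by 1.17 (SE 0.15, adjusted p = 0.00143), also lost without replicate 3 (0.0204). In B-cell-like cells of infarct replicate 3, 25 of 26 Hbegf UMIs lay in 1 cell.

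Areg was higher in dendritic-like cells by 2.48 (SE 0.452, edgeR adjusted p = 2.33e-05), but this rested on infarct replicate 3. That heart held 55.4 CPM there from 87 UMIs, 70 of them in 3 cells, against 4.62 and 1.97 CPM in replicates 1 and 2 and 5.07 CPM at baseline. Without replicate 3 the log2 difference was 0.72 (adjusted p = 0.337), and by DESeq2 on all hearts the adjusted p was 0.244. The Saa3 Arg1 gate of infarct replicate 2 held 86 Areg UMIs, 83 of them in 3 cells, and 54.5 CPM, where the other hearts held 0.232 and 3.30 CPM. Reparative-like macrophages were lower by 1.71 (SE 0.19, adjusted p = 0.000783), at 0.616, 1.24 and 1.91 CPM, a call lost with clusters in place of gates (-1.12, adjusted p = 0.208) and without the library block (0.0496). Hbegf and Areg are known to be induced by cell stress. Here 10 of 12 immediate-early and heat-shock genes were lower than baseline in every infarct library and 2, Junb and Ier3, higher, where 55.7% of all genes were lower and 30.7% higher. Hspa1a measured 385 CPM at baseline and 74.0, 152 and 34.8 CPM after infarction, and Egr1 797 and 347, 263 and 408 CPM. Their part in the lower Hbegf and Areg levels was not tested.

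Of the 18 genes of the EGF list, Adam10, Adam17 and Rhbdf2 had a mean over the libraries of 10 CPM or more. Adam17, the main sheddase of these ligands, measured 98.8 CPM at baseline and 133, 125 and 129 CPM after infarction, and Rhbdf2, the iRhom that escorts it, 15.4 and 23.0, 19.8 and 19.5 CPM. Both were above baseline in every heart, while Adam10 overlapped. The receptor Egfr measured 13.6 CPM at baseline and 0.746, 0.437 and 0.516 CPM after infarction. Nrg1, which encodes the ligand neuregulin 1, was higher in classical monocyte-like cells by 3.15 (SE 0.146, edgeR adjusted p = 2.42e-06), at 23.3 ± 3.40 CPM (SD, n = 3) against 2.70 ± 0.215 CPM in other cells. The list gave 13 higher and 17 lower calls over 156 pairs, with a median of -0.12. Per gate, 4.34 to 14.9% of all genes tested were higher and 4.81 to 17.4% lower.

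Among the gates tested, Osm had its highest infarct means in granulocyte-like, classical monocyte-like and transitional cells. In granulocyte-like cells it measured 387 CPM at baseline and 214, 217 and 208 CPM after infarction. The sort had selected Ly6G-negative cells, and this gate held 0.703% of baseline cells. It was higher than other cells of the infarct hearts by 1.52 (SE 0.184, edgeR adjusted p = 6.97e-15). In classical monocyte-like cells Osm measured 81.6 CPM at baseline and 134, 210 and 122 CPM after infarction, and they were higher than other cells by 1.33 (SE 0.137, adjusted p = 0.000111). Transitional cells measured 61.8 CPM and 105, 138 and 105 CPM, and were higher by 0.80 (SE 0.082, adjusted p = 1.35e-06). Every infarct heart exceeded the baseline in both gates. Cycling, non-classical monocyte-like and B-cell-like cells were lower, by 0.55, 1.18 and 0.95 (adjusted p = 0.000419, 6.34e-05 and 0.00028). The first 2 calls were lost without infarct replicate 2 (0.0146 and 0.0425) and the last without replicate 1 (0.0166).

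Osm also lay above baseline in 5 of 6 macrophage gates, but with clusters in place of gates the log2 difference was -1.07 for resident-like, -0.11 for interferon-response-like and -0.05 for cycling macrophages. MHC-II-high macrophages measured 44.7 CPM at baseline and 63.9, 58.3 and 57.5 CPM after infarction, and resident-like macrophages 35.5 CPM and 63.1, 52.1 and 74.7 CPM. Dendritic-like cells measured 22.8 CPM and 49.6, 72.7 and 54.2 CPM. Reparative-like macrophages went the other way, at 71.5 CPM and 65.5, 58.3 and 52.6 CPM, but after thinning to 2000 UMIs their log2 difference was 0.16. All infarct hearts were above baseline in 8 of the 12 gates and below in 2. Of all genes of at least 10 CPM, 21.7 to 38.3% were above and 25.7 to 55.9% below, depending on the gate. After thinning, 10.5% of baseline classical monocyte-like cells held an Osm UMI (8.79 to 12.4) and 19.2%, 21.4% and 16.7% of infarct ones, beside 0.794% of baseline and 0 to 8.99% of infarct B-cell-like cells. Their median depths before thinning were 7898.5 UMIs at baseline and 7759.5 to 8680 UMIs after infarction, against 4906 and 9441.5 to 10317 UMIs in B-cell-like cells. Without thinning the shares were 25.7% and 39.8%, 48.3% and 40.5%.

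The OSM and gp130 list held 12 genes, 6 of which averaged 10 CPM or more. The receptor subunits Lifr (209 CPM at baseline against 67.1, 57.0 and 67.6 CPM), Il6st, which encodes gp130 (56.8 against 32.0, 23.1 and 28.8 CPM), and Il6ra (243 against 131, 108 and 131 CPM) were below baseline in every heart. Socs3, the feedback inhibitor induced by gp130 signals, was above it, at 171 CPM against 253, 224 and 272 CPM. Within the infarct hearts Lifr was higher in resident-like macrophages than in other cells by 1.13 (SE 0.132, edgeR adjusted p = 1.78e-10), and Socs3 was higher in MHC-II-high macrophages by 0.57 (SE 0.0356, adjusted p = 3.69e-06). Osmr, which encodes a receptor subunit for OSM, measured 0.917 CPM at baseline and 0.128 to 0.577 CPM after infarction. The list gave 25 higher and 22 lower calls over 118 pairs, with a median of -0.02. Over all 4 lists, which include the 8 members, 64 pairs were higher and 112 lower of 503, and 36 and 54 without the library block, beside the same 4.34 to 14.9% higher and 4.81 to 17.4% lower per gate over all genes.

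Within the 12 gates that could be compared with baseline, the members gave 96 gene and gate pairs, of which 25 had all infarct hearts above and 36 had all below. Over all gene and gate pairs of at least 10 CPM, 28.6% were above and 45.1% below. Pdgfa and Osm were above in 8 gates each. Igf1 was above in none, below in 5 and overlapping in 7, and Igfbp4 was below in 9. Hbegf and Areg were each below in 5 gates, above in 1 and overlapping in 6.

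When the infarct level of each gate was weighted by the gate sizes of the baseline library, an alternative added after the data were seen, the totals moved unequally. Pdgfa gave 31.9 ± 3.18 CPM (SD, n = 3) beside 51.0 CPM measured and 19.4 CPM at baseline, and stayed above baseline in every heart. Osm gave 73.3 ± 2.75 CPM and also stayed above. Pdgfb gave 63.1 ± 7.16 CPM beside a baseline of 63.2 CPM and overlapped. Pdgfc and Igfbp4 gave 14.4 ± 1.19 and 94.5 ± 14.7 CPM, still below baseline but nearer to it than measured. Igf1 gave 213 ± 46.9 CPM and Areg 5.80 ± 3.92 CPM, and both overlapped, and Hbegf gave 3.30 ± 1.28 CPM, below in every heart.

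Across 51 sums of 1 library and 1 gate with at least 50 cells, the pattern of each member was compared with 7949 genes by Pearson's r of log2(CPM + 10). The sums of a library share its depth and free RNA, so these values are descriptions. Igf1 reached r = 0.965 with Stab1, its highest value, and Igfbp4 was most like Pmp22 (0.934), Gas6 (0.934) and Stab1 (0.930). Pdgfc was most like Npl (0.876), Nacc2 (0.864) and Gas6 (0.856), and Pdgfa most like Fblim1 (0.909), Lhfpl2 (0.896) and Hebp1 (0.890). Pdgfb reached 0.837 with Pea15a, and Osm 0.868 with Ccr1, 0.845 with Slfn4 and 0.836 with Il1rn. Hbegf and Areg had no close partner, with a highest r of 0.624 (S1pr1) and 0.518 (Sfxn2). Among the members, r was 0.889 between Igf1 and Igfbp4, 0.841 between Igf1 and Pdgfc and 0.838 between Pdgfc and Igfbp4, while Osm reached -0.358 to 0.0688 with the other genes.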

How the data were processed

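The deposited values were UMI counts per gene and cell, 1 matrix per library, made by the authors with Cell Ranger (version 3.0.1 per the submitters' processing notes, 3.1.0 in the matrix header) against mm10. Cells with 500 to 40000 UMIs and more than 200 genes were kept, and 1000 non-mitochondrial UMIs were needed for a gate. Gates used marker UMIs per 10000 UMIs, with thresholds of 5 to 100 set after the scores were seen. The 8 members, the gene lists and the rule to describe every member were chosen with earlier results of these data known. Counts were summed per library and gate (at least 20 cells per library) and tested with edgeR 4.0.16 (R 4.3.3; filterByExpr, TMM, quasi-likelihood, Benjamini-Hochberg adjusted p below 0.01), with the library as a block, since the gate and the other cells came from the same heart. Labels number the infarct hearts only. The p-values rest on 3 hearts, and edgeR draws the dispersion of each gene towards that of all genes. They therefore do not measure the spread of a single gene between hearts alone. The test was checked on counts simulated for the reparative-like and resident-like gates. There every heart had the same gene proportions, so differences between hearts were not checked. Scrublet in scanpy 1.11.5 called 1.97% of baseline cells and at most 0.0099% of infarct cells as doublets, so the automatic calls were not used, and removing the 8.10 to 8.63% of cells with the highest scores was an alternative. Other alternatives were DESeq2 1.42.0, other scaling, filters, gate thresholds, clusters, thinning and leaving out each heart. Intervals cover counting error only.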

Additional observations from a re-analysis of the deposited data

Results flagged for a closer look

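For 6 pairs of a gene and a gate, the log2 ratio of the gate to the other cells had one sign in the single baseline library and the opposite sign in every infarct heart. The difference was not tested. The share of all genes with such a change of sign is not given, so 6 pairs cannot be read as many or few. Pdgfc in reparative-like macrophages had a ratio of -0.39 at baseline and 1.33, 1.39 and 1.31 in infarct replicates 1 to 3. Igfbp4 had -1.70 at baseline and 0.41, 0.49 and 0.22 in the same gate, and Pdgfb -0.19 and 0.37, 0.22 and 0.13. Igfbp4 in remaining macrophages had -0.26 at baseline and 1.26, 0.76 and 0.77 after infarction. Pdgfa in resident-like macrophages had 0.31 and then -0.43, -0.64 and -1.17, and in transitional cells 0.18 and then -1.23, -0.98 and -0.73. The comparator differs: resident-like cells were 32.3% of the baseline library and 1.14% of the infarct libraries.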

How the results depend on the processing

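Without the library block, higher pairs of members fell to 8 and lower pairs to 22, and pathway pairs to 36 and 54. With clusters in place of gates, which cover fewer populations, 11 member pairs were higher, and 21 pairs within a gate lay below baseline. Leaving out 1 heart gave 19 to 22 higher and 35 to 46 lower member pairs, and 52 to 64 and 87 to 97 pathway pairs. It gave 3 to 4 members above and 4 below baseline in the whole sort, and 27 to 32 and 41 to 44 pairs within gates. The counts above and below baseline can only stay or rise when a heart is left out, so they are no check. Gate comparisons under alternatives covered at most 56 pairs per alternative, fewer than the 20 higher and 40 lower pairs called. Of these 770 comparisons, 681 kept direction and call, 86 lost the call (28 of them without the block) and 3 reversed. The 3 were Igf1 in remaining macrophages with thresholds halved (-0.10), and with clusters Igfbp4 (-1.27) and Pdgfc (-0.073) in reparative-like cells. The reparative-like cluster held 3731 cells and the gate 10636, so different sets of cells were compared there. At the baseline gate mix, Pdgfb (-0.0014) and Areg (0.089) reversed in the whole sort. Infarct against baseline within a gate reversed with clusters for Igfbp4 in non-classical monocyte-like (1.32), Osm in cycling (-0.049), interferon-response-like (-0.11) and resident-like (-1.07), Pdgfb in interferon-response-like (-0.043), and Pdgfc in reparative-like (-0.071) and resident-like cells (0.26). With thresholds halved Igfbp4 in non-classical monocyte-like cells gave 0.55, with thresholds doubled Pdgfb in transitional cells 0.018, and with cells thinned Osm in reparative-like cells 0.16 and Pdgfc in remaining macrophages 0.38. The cause was not tested. A single baseline library, few UMIs for Hbegf and Areg, and 91 to 147 resident-like cells per infarct heart limit what these data can show.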
